A study of Mus musculus with 69 samples.

Results

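Glutathione S-transferases are the enzymes that couple the tripeptide glutathione to reactive compounds, and the values described here are those of 10 of their genes in mouse liver. The genes were taken by symbol from the deposited tables: Gsta1, Gsta2, Gsta3 and Gsta4 of the alpha class, Gstm1, Gstm2, Gstm3 and Gstm6 of the mu class, Gstp1 of the pi class and Gstt3 of the theta class. All 10 were found among 55367 gene symbols, and all 10 passed the filter on low counts that left 17059 genes for testing. The livers came from C57/Bl6J mice on a high-fat diet (HFD). Every group, control included, carried the genotype that the labels write as J1 J2 lf/lf. The labels place recombination in hepatocytes, and control libraries are labelled GFP in place of the recombinases CRE and FLPO. The groups were JNK7a (CRE, 22 libraries), JNK7b (FLPO, 23 libraries) and control (GFP, 24 libraries). JNK7a and JNK7b are named after spliceoforms of the c-Jun N-terminal kinases (JNK), stress-activated kinases encoded by Mapk8 and Mapk9. The labels say neither which spliceoform a name keeps or loses nor how the recombinases were delivered. Livers were taken every 3 h over 24 h, with 2 to 4 libraries in each of the 24 combinations of group and clock hour. The labels do not say that each library is a separate animal, and a p-value here then reflects spread among libraries, which may be technical.

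The cytosolic transferases work as dimers and are sorted into classes by sequence. They conjugate electrophiles such as drug metabolites, epoxides and aldehydes from oxidised lipids, and the conjugates are exported and processed to mercapturic acids. In liver many of these genes are known to respond to the oxidant-sensing factor NRF2 through antioxidant response elements and to the xenobiotic receptors CAR and PXR. The pi-class protein is also known, from work in cultured cells, to bind JNK and to hold down its activity.

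The 250 bases upstream of the start are shown for Gstp1, Gsta3, Gsta1, Gsta2 and Gstt3. A factor at the end of the JNK pathway, AP-1, and NRF2 act on such regions. The same stretches of the mu members were searched too but are not shown. The sequences are RefSeq's for GRCm38.p6, written 5′ to 3′ on the gene's strand, and 9 of the 10 members had an entry, Gsta4 being the exception. Capitals mark matches to 4 motifs searched on both strands, which did not overlap one another: the antioxidant response element core TGACNNNGC, the AP-1 site TGANTCA, the TATA box TATAAA and the E-box CACGTG.
Gstp1, chr19:4037913-4038162, minus strand: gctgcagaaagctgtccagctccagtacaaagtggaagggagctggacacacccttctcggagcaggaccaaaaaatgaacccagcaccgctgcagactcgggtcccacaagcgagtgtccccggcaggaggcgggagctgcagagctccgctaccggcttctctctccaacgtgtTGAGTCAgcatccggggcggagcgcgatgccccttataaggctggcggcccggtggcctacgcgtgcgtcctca
Gsta3, chr1:21240335-21240584, plus strand: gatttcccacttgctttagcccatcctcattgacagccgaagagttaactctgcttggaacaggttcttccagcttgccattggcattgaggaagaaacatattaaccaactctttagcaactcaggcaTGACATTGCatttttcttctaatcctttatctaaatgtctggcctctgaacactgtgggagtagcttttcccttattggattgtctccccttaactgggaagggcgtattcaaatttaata
Gsta1, chr9:78230419-78230668, plus strand: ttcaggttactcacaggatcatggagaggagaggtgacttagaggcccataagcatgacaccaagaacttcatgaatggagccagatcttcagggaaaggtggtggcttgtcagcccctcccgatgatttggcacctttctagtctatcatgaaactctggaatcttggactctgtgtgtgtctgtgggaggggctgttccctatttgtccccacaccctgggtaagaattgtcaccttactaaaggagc
Gsta2, chr9:78347146-78347395, minus strand: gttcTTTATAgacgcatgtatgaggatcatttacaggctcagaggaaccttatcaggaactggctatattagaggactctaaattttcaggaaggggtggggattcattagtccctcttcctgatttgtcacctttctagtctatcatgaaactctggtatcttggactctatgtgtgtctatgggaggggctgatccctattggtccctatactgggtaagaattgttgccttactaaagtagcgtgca
Gstt3, chr10:75781415-75781664, minus strand: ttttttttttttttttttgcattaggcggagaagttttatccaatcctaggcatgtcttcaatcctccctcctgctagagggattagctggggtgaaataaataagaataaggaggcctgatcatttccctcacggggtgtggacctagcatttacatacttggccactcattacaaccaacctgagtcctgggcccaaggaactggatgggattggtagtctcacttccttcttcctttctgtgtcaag

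Among the 9 windows the AP-1 letters occurred in that of Gstp1 alone, at positions -74 to -68 counted from the start, and 6.75% of all 32851 RefSeq windows of the same length held them. The antioxidant response element core occurred in that of Gsta3 alone, at -121 to -113, against 10.2% of all windows. The TATA letters occurred in that of Gsta2 at -246 to -241, on the other strand and far from the usual place, against 12.4% of all windows, and no member's window held the E-box letters, which 6.02% of all windows did. These are matches of letters, not sites shown to be used. The AP-1 letters of Gstp1 run on as TGAGTCAGC, which differs from the searched antioxidant response element core only by a G for its first C. The Gsta1 and Gsta2 windows were identical at 184 of 239 aligned bases (77%). By the GENCODE annotation of mm10, Gsta1, Gsta2 and Gsta4 lie on chromosome 9, the 4 mu genes lie on the same strand of chromosome 3, and Gsta3, Gstp1 and Gstt3 lie on chromosomes 1, 19 and 10.

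Library totals ranged from 26.8 M to 48.6 M estimated counts, and hepatocyte markers such as Alb summed to 91839 to 173034 CPM (counts scaled to a library total of 1000000) in JNK7a, 75924 to 119335 in JNK7b and 94473 to 121803 in control. Against control, JNK7a had 5 of 10 hepatocyte markers called higher and 0 lower, and JNK7b had 0 higher and 5 lower. Markers of T and NK cells summed to 4.29 to 16.8 CPM in JNK7a, 1.98 to 12.3 in JNK7b and 1.79 to 8.82 in control, with 7 of 10 higher and 0 lower in JNK7a and 4 higher and 1 lower in JNK7b. Markers of B and plasma cells summed to 32.1 to 711 CPM in JNK7a, 10.6 to 191 in JNK7b and 8.04 to 419 in control, with 3 and 2 of 8 higher. Mitochondrial RNA made up 12.7% ± 1.05 of TPM in JNK7a, 13.3% ± 1.23 in JNK7b and 13.8% ± 0.945 in control (SD). The part of such shifts in the results below was not tested, and in whole liver fewer cells of a type and less RNA per cell cannot be told apart. Mapk8 averaged 14.6 ± 3.28 CPM in JNK7a (SD, n = 22), 17.7 ± 2.12 in JNK7b (n = 23) and 17.8 ± 2.30 in control (n = 24), and Mapk9 averaged 41.0 ± 4.51, 56.7 ± 7.87 and 49.9 ± 10.5 CPM in the same order, both lower in JNK7a than in control (edgeR adjusted p = 0.00230 and 0.00515) and neither called in JNK7b (1.00 and 0.116). Counts per gene do not tell the alternative exons apart, so they do not check the labels. An earlier pass over these data found that 2 libraries stand apart, control 8 h replicate 3 and JNK7b 5 h replicate 2. The control one had the group's highest Gstm6 and Gstp1, and the JNK7b one its group's highest Gsta2, Gsta3, Gstm2, Gstm6 and Gstt3. Without both together, no member gained or lost a call in the 3 comparisons of groups. A further control library, 14 h replicate 2, held the group's highest level of 5 of the 10 members (Gsta1, Gsta2, Gsta4, Gstm1 and Gstm3), which was seen only with the values.

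Transferase transcripts were abundant but uneven. Levels between genes are given in TPM, transcript abundances that are corrected for length and sum to 1000000 a library. Over all 69 libraries Gsta3 averaged 2316 ± 317 TPM (SD) and Gstp1 2307 ± 1161 TPM, followed by Gstm1 at 1100 ± 385 TPM. Pooled over the groups, these 3 genes made up 38.4%, 38.2% and 18.2% of the summed TPM of the 10. Within the groups Gsta3 and Gstp1 were not tied: Gstp1 averaged 3360 ± 1176 TPM in JNK7a, 1795 ± 825 in JNK7b and 1832 ± 714 in control, and Gsta3 averaged 2305 ± 330.3 TPM in JNK7a, 2336 ± 338 in JNK7b and 2308 ± 297 in control. The other 7 averaged between 11.5 TPM (Gsta1) and 83.9 TPM (Gstm6), with Gsta4 at 68.8 ± 19.5, Gstm2 at 54.7 ± 17.0, Gstm3 at 40.1 ± 23.1, Gstt3 at 34.5 ± 17.2 and Gsta2 at 20.3 ± 16.7 TPM. Neighbours in the pooled order differed by less than the larger of their SDs, except Gstp1 from Gstm1 and Gstm1 from Gstm6. Spread between libraries was narrowest for Gsta3, whose highest library stood at 1.68 times its lowest in CPM, and widest for Gsta1, at 189 times, with estimated counts of 8 to 1763.

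**Figure D1:**
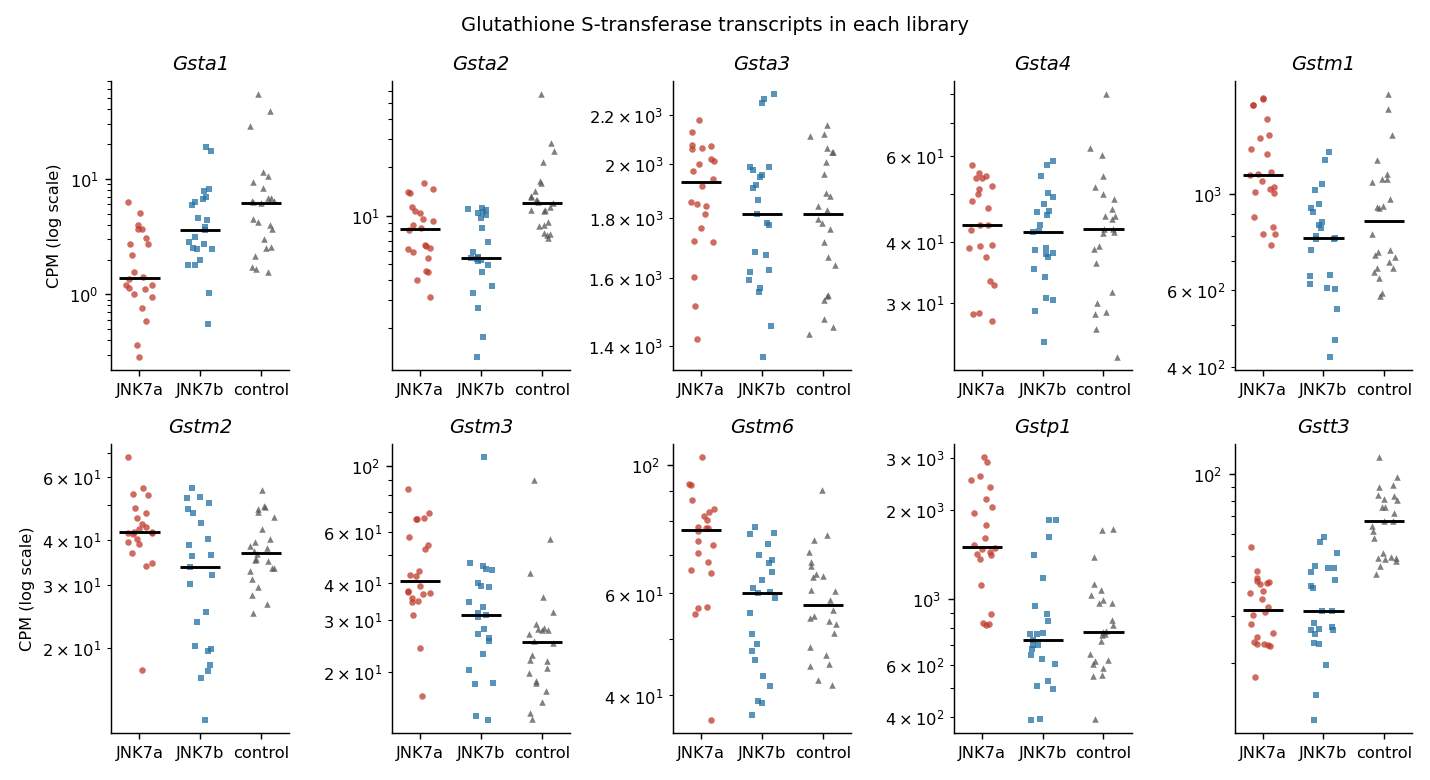
CPM (log scale) of each member in every library of JNK7a (22), JNK7b (23) and control (24), with the median as a bar. JNK7a sits high for Gstp1, Gstm3 and Gstm6 and low for Gsta1, and both JNK7a and JNK7b sit low for Gstt3 and Gsta2.

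In JNK7a against control, 4 of the 10 members were higher and 3 lower at an adjusted p below 0.05, beside 8.31% of all tested genes higher and 9.56% lower. The higher ones were Gstp1 and the mu genes Gstm3, Gstm1 and Gstm6, and the lower ones were Gsta1, Gsta2 and Gstt3, while Gsta3, Gsta4 and Gstm2 were not called. In JNK7b against control 0 members were higher, beside 5.6% of all genes, and 2 were lower, Gsta2 and Gstt3, beside 5.74%. For the count of 0, edgeR, DESeq2 and limma voom each found 0 members higher, also at an unadjusted p below 0.05. In JNK7b against JNK7a 1 member was higher, Gsta1, beside 9.29% of all genes, and 4 were lower, Gstp1, Gstm1, Gstm2 and Gstm6, beside 9.35%. The 3 comparisons share libraries, so their values are set side by side and not tested for likeness. The median log2 fold change over the 10 members was 0.12, -0.09 and -0.32 in the 3 comparisons as listed, against 0.00 for all genes in each. Higher calls were 46.5% of all calls in JNK7a against control by counts but 24.3% on log2(TPM + 1), and 49.8% and 74.3% in JNK7b against JNK7a, while no member changed sign with a call on either scale.

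**Figure D2:**
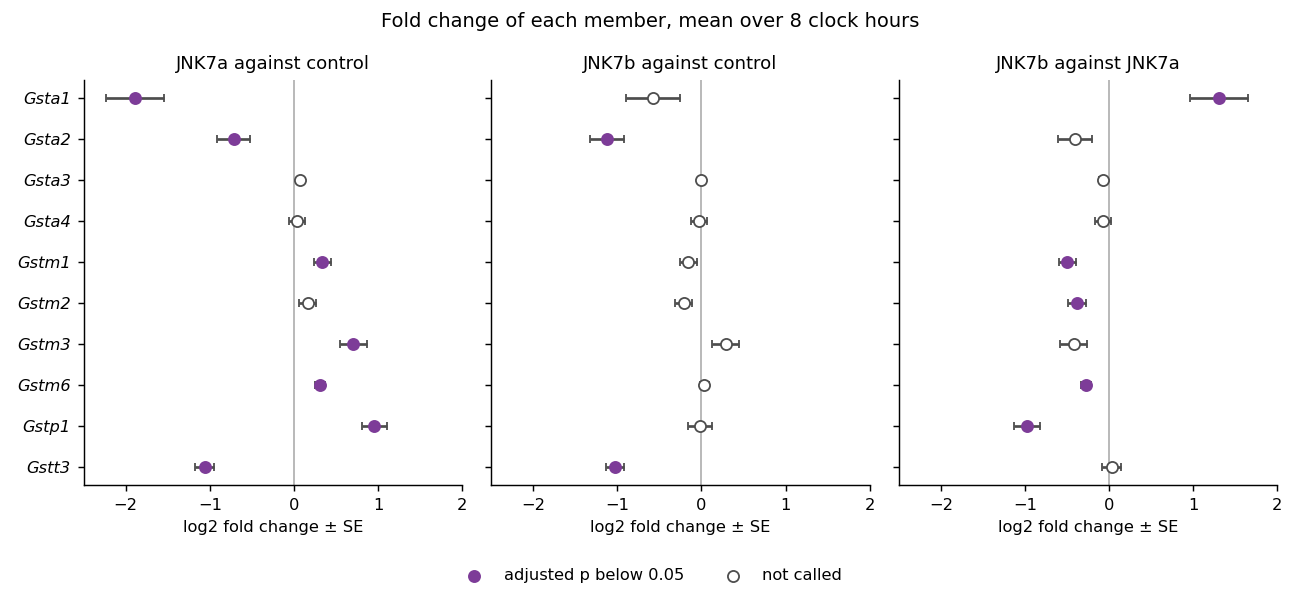
Log2 fold change ± SE of each member as the mean over the 8 clock hours, from edgeR, with filled points for an adjusted p below 0.05. JNK7a against control has 4 called members right of 0 and 3 left, JNK7b against control has 2 left, and JNK7b against JNK7a has 1 right and 4 left.

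Gstp1, the one pi-class gene of abundance in mouse liver, where it is known to be higher in males, had the largest log2 fold change of the 4 members higher in JNK7a than in control, as a mean over the 8 hours. Its lowest, median and highest libraries stood at 815, 1505 and 3026 CPM in JNK7a, at 390.3, 726 and 1856 CPM in JNK7b and at 392.5, 775 and 1730 CPM in control. All 22 JNK7a libraries lay above the control median and 9 above every control library, whereas the ranges of JNK7b and control overlapped nearly in full. The log2 fold change of JNK7a against control was 0.96 ± 0.15 (SE, edgeR quasi-likelihood test, adjusted p = 2.42e-06), with the same sign at 8 of 8 hours. At 7 of those hours every JNK7a library lay above every control library of that hour. JNK7b against control gave -0.02 ± 0.15 (edgeR adjusted p = 1.00; approximate 95% interval -0.31 to 0.27), and JNK7b against JNK7a gave -0.98 ± 0.15 (edgeR adjusted p = 2.99e-06, 8 of 8 hours). Gstp1 was lowest at 2 h in each group, at 826 CPM in JNK7a, 504 in JNK7b and 574 in control. At 8 h the means were 2102 CPM in JNK7a, 982 in JNK7b and 1470 in control. At 23 h the 4 JNK7b libraries split, with 759, 698, 1849 and 1856 CPM, against 552, 759 and 549 CPM in control.

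Gstp1 shares 38.5% of its 31-base stretches with its neighbour Gstp2, so reads can pass between these genes. Gstp2 itself averaged 31.2 ± 18.3 TPM in JNK7a, 23.2 ± 20.0 in JNK7b and 20.3 ± 12.5 in control, and was not called in any comparison. The sum of the pair was 3391 ± 1183 TPM in JNK7a, 1818 ± 841 in JNK7b and 1852 ± 721 in control, so it moved as Gstp1 did. Gstp3, a further neighbour, went the other way, with log2 fold changes of -0.29 ± 0.08 in JNK7a (edgeR adjusted p = 0.00895) and -0.42 ± 0.08 in JNK7b (adjusted p = 2.17e-04) against control.

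Gstt3, a theta-class enzyme, fell in both groups. Its lowest, median and highest libraries stood at 17.8, 31.6 and 54.0 CPM in JNK7a, at 12.4, 31.3 and 58.8 CPM in JNK7b and at 42.8, 67.2 and 116 CPM in control. Of the JNK7a libraries 20 of 22, and of the JNK7b libraries 16 of 23, lay below every control library, and none of either group reached the control median. The log2 fold change against control was -1.06 ± 0.11 in JNK7a (edgeR adjusted p = 3.05e-10) and -1.03 ± 0.11 in JNK7b (edgeR adjusted p = 1.43e-09), with the same sign at 8 of 8 hours in each. JNK7b against JNK7a gave 0.03 ± 0.11 (adjusted p = 0.925), with an approximate 95% interval of -0.19 to 0.25. In JNK7b it averaged 27.2 ± 10.4 CPM over the 13 libraries of hours 8, 11, 20 and 23 and 42.7 ± 9.72 CPM over the 10 libraries of hours 2, 5, 14 and 17, against 68.4 ± 19.7 and 69.1 ± 19.8 CPM in control. That difference between sets of hours, tested below, missed the threshold (edgeR adjusted p = 0.103) and passed it without control 14 h replicate 3 (-0.71, adjusted p = 0.0438). The theta genes of the same stretch of chromosome 10 had smaller fold changes. Gstt1 had log2 fold changes of -0.25 ± 0.06 in JNK7a (edgeR adjusted p = 8.55e-04) and -0.27 ± 0.06 in JNK7b (adjusted p = 7.73e-04), and Gstt2 of -0.24 ± 0.08 (adjusted p = 0.0201) and 0.05 ± 0.08 (adjusted p = 0.804), all against control.

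**Figure D3:**
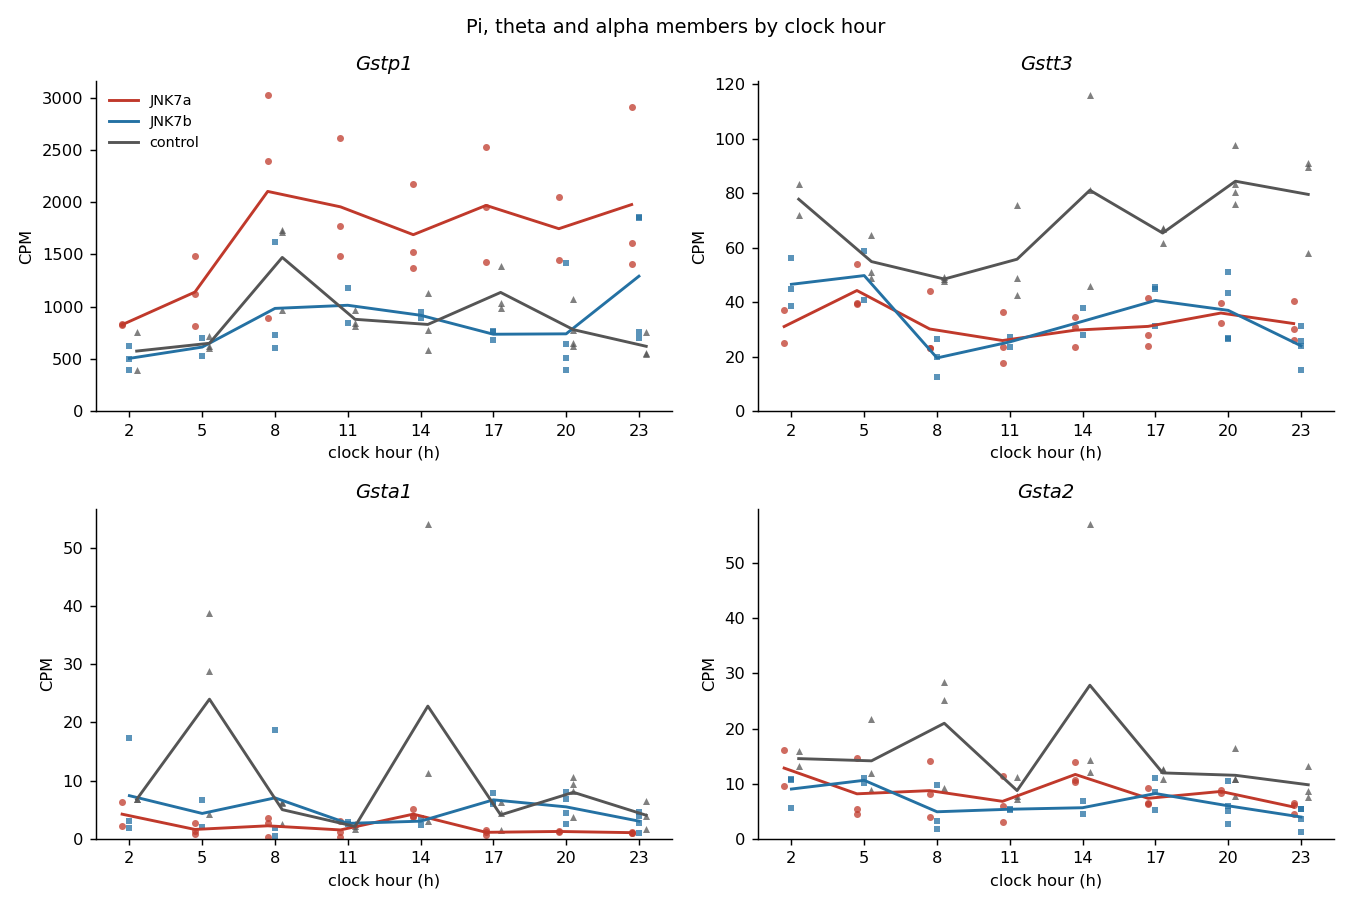
CPM of Gstp1, Gstt3, Gsta1 and Gsta2 by clock hour, with points for libraries and lines through the means of JNK7a, JNK7b and control. Gstt3 stays lower in JNK7a and JNK7b at every hour, Gstp1 is higher in JNK7a at every hour, and the high Gsta1 means of control rest on libraries with 28.9 and 38.8 CPM at 5 h and 54.0 CPM at 14 h.

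Gsta1 and Gsta2, alpha-class enzymes that are low in untreated mouse liver and known to be inducible, were lower in JNK7a. Gsta1 had 0.29, 1.37 and 6.25 CPM in its lowest, median and highest JNK7a libraries, 0.55, 3.61 and 18.8 CPM in JNK7b and 1.55, 6.20 and 54.0 CPM in control. Of the 22 JNK7a libraries 21 lay below the control median and 12 below every control library. JNK7a against control gave a log2 fold change of -1.89 ± 0.34 (edgeR adjusted p = 3.97e-05, 8 of 8 hours). In JNK7b against control it was -0.58 ± 0.32 (edgeR adjusted p = 0.273, 4 of 8 hours), a value that moved with what was left out. It was called without JNK7b 8 h replicate 3, at 18.8 CPM (-0.90, adjusted p = 0.0407), and in no other alternative. It was -0.37 without control 14 h replicate 2 (adjusted p = 0.505), -0.31 with hour 5 dropped (adjusted p = 0.620) and -0.25 with hour 14 dropped (adjusted p = 0.727). JNK7b against JNK7a gave 1.31 ± 0.34 (edgeR adjusted p = 0.00439, 7 of 8 hours), a call that limma voom did not make (adjusted p = 0.108).

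Gsta2 had 3.11, 8.26 and 16.1 CPM in its lowest, median and highest JNK7a libraries, 1.32, 5.46 and 11.1 CPM in JNK7b and 7.29, 12.1 and 57.1 CPM in control. All 23 JNK7b libraries lay below the control median and 15 below every control library. Against control it gave -0.72 ± 0.20 in JNK7a (edgeR adjusted p = 0.00739) and -1.12 ± 0.20 in JNK7b (edgeR adjusted p = 7.73e-05), with the same sign at 8 of 8 hours in each. JNK7b against JNK7a gave -0.40 ± 0.21 (adjusted p = 0.183; approximate 95% interval -0.81 to 0.00). Without control 14 h replicate 2, which held 54.0 CPM of Gsta1 and 57.1 CPM of Gsta2, the JNK7a values were -1.68 for Gsta1 and -0.58 for Gsta2, both still called. These genes cannot be read one by one with confidence. Of the 31-base stretches of Gsta1, 92.9% occur in other genes, 80.3% in the near-copy Gm3776, and of those of Gsta2, 60.7%. Gm3776 itself gave -1.49 ± 0.35 in JNK7a (edgeR adjusted p = 0.00141) and -0.72 ± 0.34 in JNK7b (adjusted p = 0.186) against control. The sum of Gsta1, Gsta2 and Gm3776 is not touched by sharing among these 3, although Gm10639 also shares stretches with them. It was 23.7 ± 13.0 TPM in JNK7a, 30.0 ± 21.8 in JNK7b and 62.9 ± 65.1 in control. The JNK7a mean was thus 0.377 times and the JNK7b mean 0.477 times that of control. Both ratios of means lean on the highest control library, at 323 TPM. The medians lay closer together, at 20.3 TPM in JNK7a, 27.2 in JNK7b and 41.7 in control.

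Gsta3, the main alpha-class transcript and in mice the enzyme known to detoxify the aflatoxin epoxide, was not called in any comparison of groups. It had 1418, 1929 and 2180 CPM in its lowest, median and highest JNK7a libraries, 1369, 1813 and 2293 CPM in JNK7b and 1432, 1812 and 2158 CPM in control. The 3 ranges overlapped nearly in full. Against control its log2 fold change was 0.07 ± 0.04 in JNK7a (edgeR adjusted p = 0.247; approximate 95% interval -0.01 to 0.15) and -0.00 ± 0.04 in JNK7b (adjusted p = 1.00; interval -0.08 to 0.08). Gsta4, known for conjugating hydroxynonenal from oxidised lipids, had 27.6, 43.3 and 57.4 CPM in JNK7a, 25.0, 41.9 and 58.6 CPM in JNK7b and 23.3, 42.5 and 80.1 CPM in control. Its log2 fold changes were 0.04 ± 0.09 (adjusted p = 0.863) and -0.03 ± 0.09 (adjusted p = 0.925).

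The mu genes are known in rodent liver as broad conjugating enzymes. In JNK7b against JNK7a 3 of the 4 were lower, Gstm1, Gstm2 and Gstm6, beside 9.35% of all genes, and Gstm3 was not called. Gstm1, the main one, had 761, 1105 and 1664 CPM in its lowest, median and highest JNK7a libraries, 421, 790 and 1247 CPM in JNK7b and 582, 866 and 1694 CPM in control. Of the JNK7a libraries 18 of 22 lay above the control median, but none above every control library. As log2 fold changes, Gstm1 gave 0.34 ± 0.10 in JNK7a against control (edgeR adjusted p = 0.0137, 7 of 8 hours), -0.15 ± 0.10 in JNK7b against control (adjusted p = 0.389) and -0.49 ± 0.10 in JNK7b against JNK7a (adjusted p = 3.59e-04, 8 of 8 hours). The first of these was not called on log2(TPM + 1) (0.27, limma adjusted p = 0.120), nor without clock hour 11 (0.26, adjusted p = 0.107) or 23 (0.26, adjusted p = 0.122).

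Gstm3 had 16.6, 40.8 and 83.9 CPM in its lowest, median and highest JNK7a libraries, 13.8, 31.3 and 108 CPM in JNK7b and 13.9, 25.3 and 90.0 CPM in control. Of the JNK7a libraries 20 of 22 lay above the control median. Its log2 fold change in JNK7a against control was 0.71 ± 0.16 (edgeR adjusted p = 8.18e-04, 8 of 8 hours), in JNK7b against control 0.29 ± 0.16 (adjusted p = 0.271) and in JNK7b against JNK7a -0.42 ± 0.16 (adjusted p = 0.0642, 6 of 8 hours). With hour 14 dropped, JNK7b against control gave 0.52 and was called (adjusted p = 0.0271). With limma voom JNK7b against JNK7a passed the threshold (-0.49, adjusted p = 0.0141). It also did so when hour 2 (-0.46, adjusted p = 0.0393) or hour 8 (-0.48, adjusted p = 0.0348) was dropped. The same held in 6 of the 69 fits that left out 1 library, among them that without JNK7b 8 h replicate 3 (-0.52, adjusted p = 0.0112). Another was that without control 14 h replicate 2 (-0.42, adjusted p = 0.0415). Control is not part of this comparison, so there the fold change stayed the same and only the estimated spread differed. Of its 31-base stretches 37.7% occur elsewhere, 24.7% in Gm8834 and 15.2% in Gstm1, so part of its reads may belong to other mu genes.

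Gstm6 had 36.3, 77.2 and 103 CPM in its lowest, median and highest JNK7a libraries, 37.0, 60.1 and 78.1 CPM in JNK7b and 41.7, 57.4 and 90.6 CPM in control. The JNK7a libraries lay above all those of control at 5 of 8 hours. Gstm6 gave log2 fold changes of 0.30 ± 0.06 in JNK7a against control (edgeR adjusted p = 8.51e-05, 7 of 8 hours), 0.04 ± 0.06 in JNK7b against control (adjusted p = 0.802) and -0.27 ± 0.06 in JNK7b against JNK7a (adjusted p = 6.49e-04, 7 of 8 hours).

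Gstm2 had 17.4, 42.1 and 68.3 CPM in its lowest, median and highest JNK7a libraries, 12.6, 33.6 and 56.1 CPM in JNK7b and 25.0, 36.9 and 55.2 CPM in control. Of the JNK7b libraries 8 of 23 lay below every control library and 1 above, and the JNK7b SD of 13.8 CPM exceeded those of JNK7a (9.76) and control (8.05). Gstm2 gave log2 fold changes of 0.17 ± 0.10 in JNK7a against control (edgeR adjusted p = 0.290), -0.21 ± 0.10 in JNK7b against control (adjusted p = 0.185) and -0.38 ± 0.10 in JNK7b against JNK7a (adjusted p = 0.00583, 5 of 8 hours). The last call was lost on log2(TPM + 1) (-0.29, limma adjusted p = 0.0679), without clock hour 11 (-0.26, adjusted p = 0.114) or 23 (-0.25, adjusted p = 0.165), and without JNK7a 2 h replicate 1 (-0.25, adjusted p = 0.0603).

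Summed over the classes the transcripts were higher in JNK7a, and the pi sum was the class sum that differed most in TPM; sums are given without a test. The 10 members summed to 7279 ± 1234 TPM in JNK7a (SD, n = 22), 5343 ± 790 TPM in JNK7b (n = 23) and 5564 ± 866 TPM in control (n = 24), so the JNK7a mean was 1.31 times and the JNK7b mean 0.96 times that of control. The alpha sum, nearly all Gsta3, was 2394 ± 344 TPM in JNK7a, 2427 ± 351 in JNK7b and 2429 ± 302 in control. The mu sum was 1501 ± 387 TPM in JNK7a, 1095 ± 336 in JNK7b and 1250 ± 455 in control. The pi sum was 3360 ± 1176 TPM in JNK7a, 1795 ± 825 in JNK7b and 1832 ± 714 in control. The theta sum was 23.9 ± 7.71 TPM in JNK7a, 25.9 ± 9.50 in JNK7b and 52.5 ± 14.6 in control. Alpha accounted for 33.9% of the total in JNK7a, 46.2% in JNK7b and 44.5% in control, and pi for 45.2%, 32.7% and 32.4% in the same order, while mu stayed at 20.6%, 20.6% and 22.2%. Because a share must fall where another rises, the lower alpha share in JNK7a is not a lower alpha level.

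**Figure D4:**
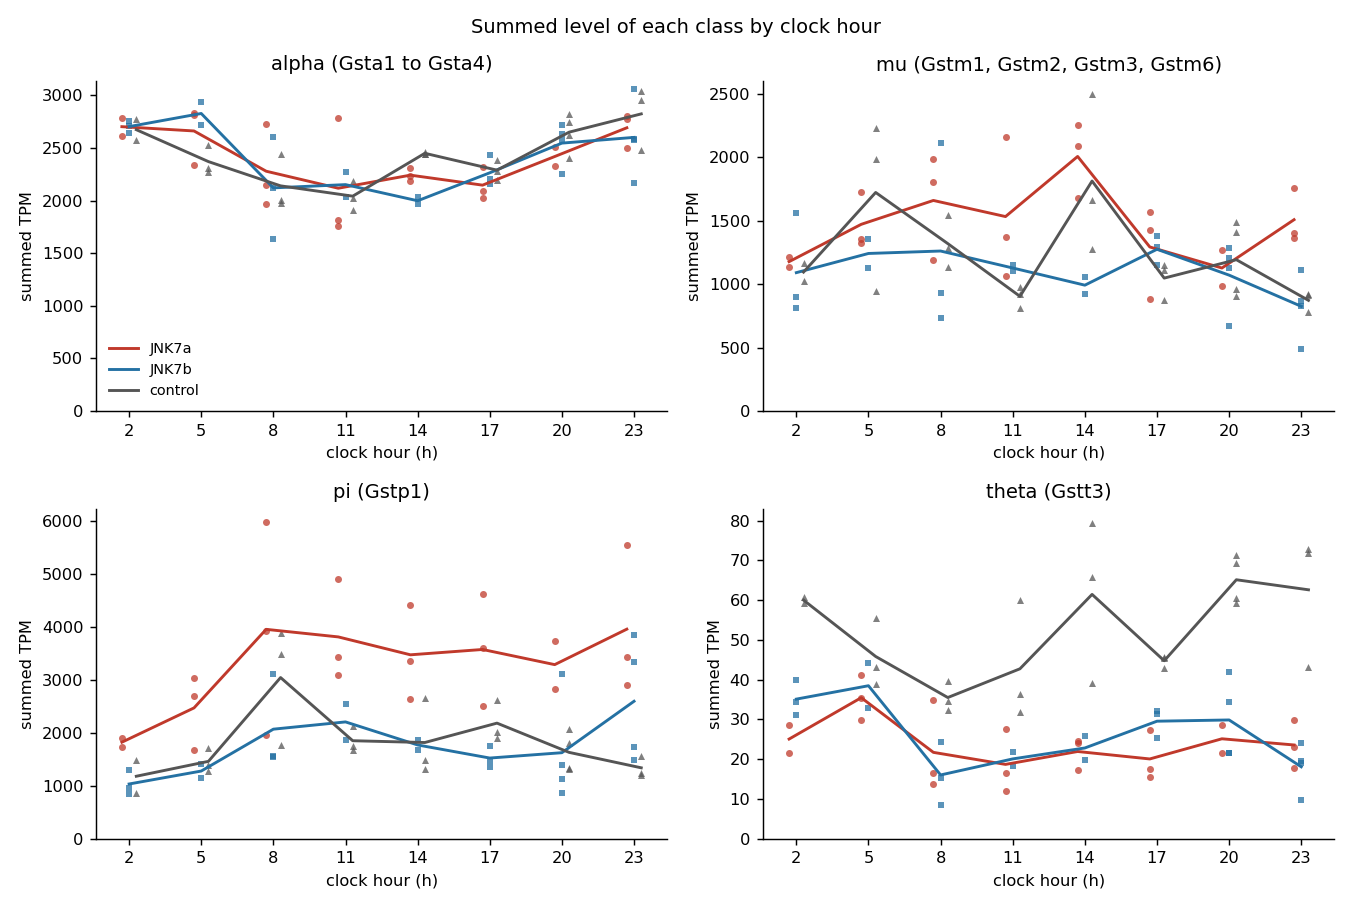
Summed TPM of the alpha, mu, pi and theta members by clock hour, with points for libraries and lines through the means of JNK7a, JNK7b and control. The alpha sums of the 3 groups run together, with hourly means of 1999 to 2828 TPM, while the JNK7a pi sum lies above control at all 8 hours and the theta sums of JNK7a and JNK7b lie below it.

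A 24 h rhythm, tested with a cosine and a sine in each group, was called for Gsta3 and Gstm6. It was called for 1 member in JNK7a, 2 in JNK7b and 2 in control, beside 21.7%, 14.1% and 19.5% of all tested genes. Gstm6 was called in all 3 groups, with edgeR adjusted p = 0.00302 in JNK7a, 8.52e-05 in JNK7b and 0.0123 in control. Its call was lost in JNK7a without clock hour 11 (adjusted p = 0.0543) and in control without clock hour 8 (adjusted p = 0.139) or 23 (adjusted p = 0.181). Its fitted peak fell at 11.9 h in JNK7a, 10.5 h in JNK7b and 10.2 h in control, with a fitted peak 1.54, 1.69 and 1.41 times the trough. Gsta3 peaked near the opposite side of the clock, with a fitted peak at 23.5 h in JNK7a, 0.46 h in JNK7b and 21.6 h in control. Its rhythm was called in JNK7b (edgeR adjusted p = 0.00130) and control (8.09e-04) but not in JNK7a (0.0581), where limma voom called it (0.0180). Its fitted peak was 1.21, 1.33 and 1.31 times the trough in JNK7a, JNK7b and control. A missed threshold in JNK7a does not show a loss of rhythm, and the test of the difference called 0 members in JNK7a against control, beside 0.0117% of all genes, and 0 in JNK7b against control, beside 0%. For those counts of 0, edgeR found 0 members at an unadjusted p below 0.05 in JNK7a and 1 in JNK7b (Gsta3, p = 0.0488), and limma voom found 0 in either. In control, limma voom also called Gstt3 (adjusted p = 0.0491), and Gstm1 was called with hour 11 dropped (adjusted p = 0.0443). Testing any difference between the 8 hours instead of a cosine called 1 member in JNK7a (Gstm6), beside 20.6% of all genes, 4 in JNK7b, with Gstm2 and Gstt3 added, beside 19.8%, and 5 in control, with Gsta1, Gsta4 and Gstm1 added, beside 19.8%.

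Gstm2 in JNK7b was not called for a 24 h rhythm (edgeR adjusted p = 0.536) but differed between hours (edgeR adjusted p = 4.32e-05). The 8 hours were split into 8, 11, 20 and 23 against 2, 5, 14 and 17, a split that an earlier pass over these data had named and that is therefore no independent choice. In the first set Gstm2 averaged 24.5 ± 9.68 CPM in JNK7b (SD, n = 13) and 37.0 ± 7.71 CPM in control (n = 13). In the second set it averaged 45.5 ± 7.82 CPM in JNK7b (n = 10) and 39.7 ± 8.57 CPM in control (n = 11). At 23 h the 4 JNK7b libraries held 17.9, 19.6, 12.6 and 16.5 CPM, against 33.4, 37.2 and 28.1 CPM in control. At 11 h the 2 JNK7b libraries held 25.3 and 20.2 CPM, against 34.9, 35.5 and 29.6 CPM, so the groups did not overlap at these hours. They did overlap at 8 h, with 19.9, 30.1 and 47.6 CPM in JNK7b against 49.8, 26.6 and 49.6 CPM in control. They also overlapped at 20 h, where the highest JNK7b library held 36.2 CPM and the lowest control library 33.5 CPM. Set against control, JNK7b gave -0.60 ± 0.14 in log2 in the first set (edgeR adjusted p = 0.00102) and 0.18 ± 0.15 in the second (0.819), and their difference was -0.78 ± 0.20 (edgeR adjusted p = 0.0160). It was the 1 member called for that difference, beside 3.87% of all genes. The call was lost without the 2 libraries that stand apart (-0.73, adjusted p = 0.0544) and on log2(TPM + 1) (-0.71, limma adjusted p = 0.060).

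Gstm3 had the opposite sign in the same test, short of the threshold. It averaged 38.2 ± 22.9 CPM in JNK7b and 22.9 ± 6.73 CPM in control over hours 8, 11, 20 and 23. Over the others it averaged 28.8 ± 10.8 CPM in JNK7b and 35.0 ± 21.6 CPM in control. These means include JNK7b 8 h replicate 3, at 108 CPM, and control 14 h replicate 2, at 90.0 CPM. The medians were 31.3 CPM in JNK7b and 20.6 in control over hours 8, 11, 20 and 23. Over the others they were 29.3 and 26.9 CPM, so JNK7b was not below control there by medians. The difference between sets was 1.02 ± 0.32 (edgeR adjusted p = 0.0597), which limma voom called (0.95, adjusted p = 0.0468), as did 10 of the 69 fits that left out 1 library. For JNK7a against control 0 members were called for the difference between sets, beside 0% of all genes. There edgeR found 2 members at an unadjusted p below 0.05, Gstm1 and Gstm3, and limma voom called 0 members with 3 below that p.

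**Figure D5:**
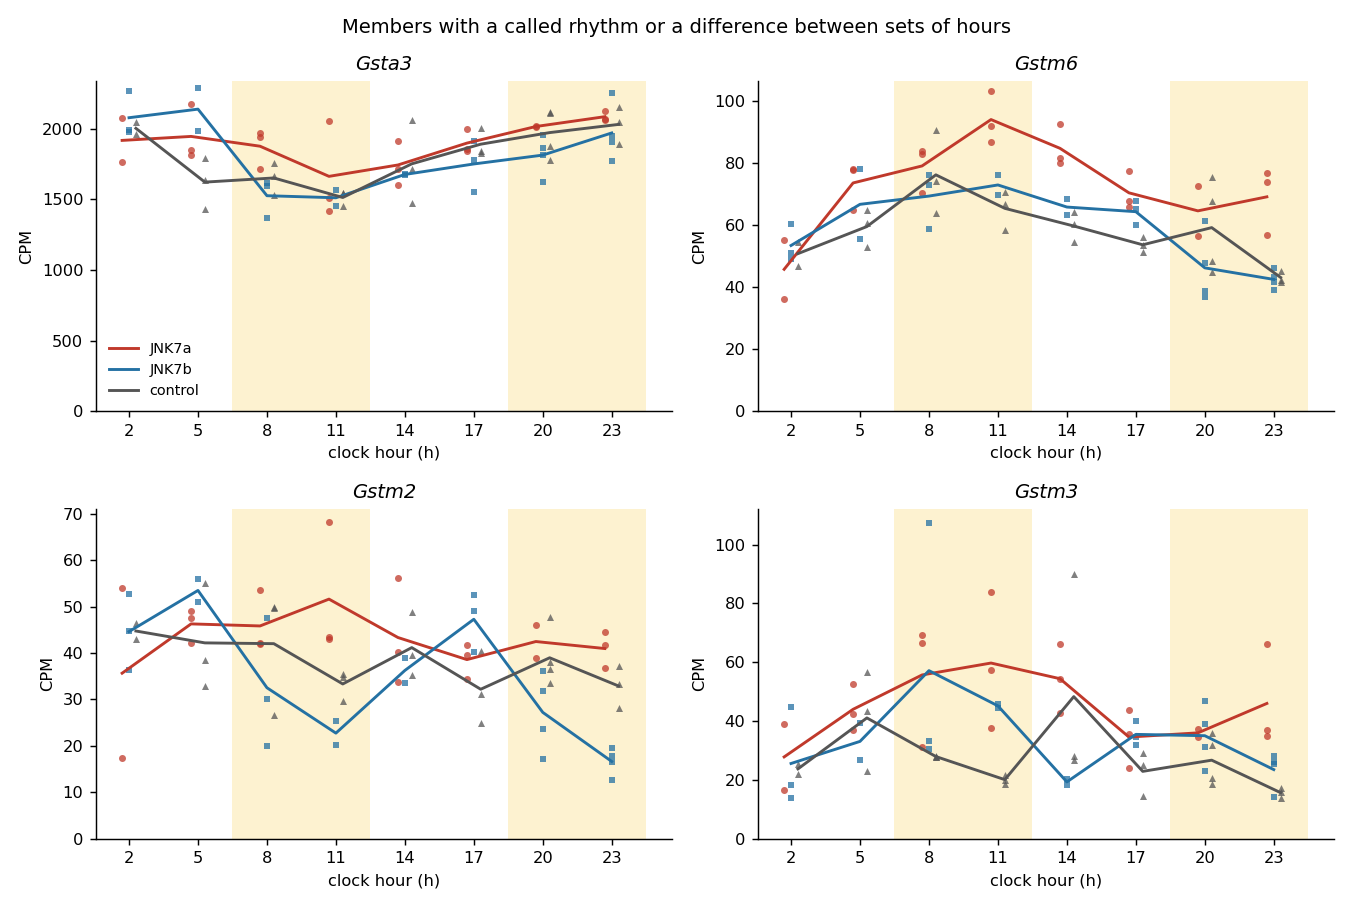
CPM of Gsta3, Gstm6, Gstm2 and Gstm3 by clock hour, with points for libraries, lines through the means of JNK7a, JNK7b and control, and shading on hours 8, 11, 20 and 23. Gsta3 is lowest at 11 h in each group, Gstm6 has its highest mean at 11 h in JNK7a and JNK7b and at 8 h in control, and Gstm2 in JNK7b drops to a mean of 16.7 CPM at 23 h.

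Across the 24 means of group and hour the mu genes Gstm1, Gstm3 and Gstm6 ran together more closely than they did with Gstm2. That is a description over points that share groups and libraries. Of the 31-base stretches of Gstm3, 15.2% occur in Gstm1, of those of Gstm6 4.52% in Gstm3, and of those of Gstm2 2.32% in Gstm1. The part of shared reads in these correlations was not tested. Pearson's r of log2 CPM was 0.73 for Gstm1 with Gstm3, 0.70 for Gstm3 with Gstm6 and 0.65 for Gstm1 with Gstm6. Gstm2 had 0.61 with Gstm1, 0.52 with Gstm6 and 0.295 with Gstm3, and outside the class Gstm6 had 0.63 with Gstp1. Gsta2 and Gstt3 had 0.73, and Gsta1 and Gstp1 had -0.71. By the same measure the non-member genes most like Gstp1 were Vamp7 (0.88) and Adgrf1 (0.87), the one most like Gstt3 was Crls1 (0.89), and those most like Gsta1 were Gas6 and Mgst3 (0.90 each). The closest to Gsta2 were Tstd1 (0.85) and Hamp2 (0.81), to Gsta3 Fmo1 (0.90) and Ahcy (0.88), and to Gsta4 Cyp3a11 (0.72) and Gmip (0.67). The closest to Gstm1 were Phlda3 (0.78) and Gclm (0.77), to Gstm2 Aldh9a1 (0.80) and Sugct (0.79), to Gstm3 Bst2 (0.75) and Eda2r (0.74), and to Gstm6 Gjb1 (0.83) and Gstm7 (0.82).

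The counts of the other gene lists and of the marker lists stand beside 8.31% of all tested genes higher and 9.56% lower in JNK7a against control, and 5.6% and 5.74% in JNK7b against control, and a count near those shares is no result about a list. Of 15 other transferases tested, 1 was higher and 6 lower in JNK7a against control, and 1 higher and 4 lower in JNK7b against control, with medians of -0.15 and -0.05. In JNK7b against JNK7a 3 were higher and 1 lower, beside 9.29% and 9.35% of all tested genes, with a median of -0.01. Against control in JNK7a, the lower ones included the mitochondrial and peroxisomal enzyme Gstk1 (-0.31 ± 0.05, edgeR adjusted p = 3.79e-06) and the membrane-bound Mgst3 (-0.73 ± 0.12, adjusted p = 6.82e-06), and the higher one was the mu gene Gstm5 (0.37 ± 0.08, adjusted p = 6.71e-04). Genes that make and recycle glutathione were called 2 higher and 4 lower of 22 in each of JNK7a and JNK7b against control, with medians of 0.01 and -0.07. In JNK7a glutathione reductase, Gsr, was higher (0.23 ± 0.05, adjusted p = 7.26e-04), and the glutathione peroxidase Gpx4 was lower (-0.39 ± 0.07, adjusted p = 3.80e-05). In JNK7b G6pdx, which supplies NADPH, was higher (0.67 ± 0.11, adjusted p = 1.01e-05). Other targets and regulators of NRF2 were called 3 higher and 3 lower of 20 in JNK7a and 1 and 1 in JNK7b, with medians of 0.03 and -0.02. Among them the peroxiredoxin Prdx1 was higher in JNK7a (0.28 ± 0.04, adjusted p = 7.30e-07) and lower in JNK7b (-0.15 ± 0.04, adjusted p = 0.00793). Of 12 tested genes for export and breakdown of conjugates, 2 were higher and 2 lower in JNK7a and 0 and 1 in JNK7b, with medians of 0.02 and 0.09. Nat8, the acetylase that completes mercapturic acids, was higher in JNK7a (0.49 ± 0.13, adjusted p = 0.00347) and lower in JNK7b (-0.52 ± 0.13, adjusted p = 0.00432).

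Genes of the receptors CAR and PXR were called 4 higher and 8 lower of 24 in JNK7a and 1 and 8 in JNK7b, with medians of -0.10 in each. Cyp2b10, the usual readout of CAR, was the 1 called higher in JNK7b (2.40 ± 0.30, edgeR adjusted p = 6.23e-08), while 8 others of the list were lower there. Genes of the receptor AhR were called 1 higher and 1 lower of 8 in JNK7a and 0 and 1 in JNK7b, with medians of 0.07 and -0.04, and Cyp1a2 was the higher one (1.13 ± 0.12, adjusted p = 4.50e-10). Genes known to be higher in male liver, a list that leaves out Gstp1, were called 16 higher and 1 lower of 23 in JNK7a and 12 and 1 in JNK7b, with medians of 0.93 and 0.44, and included Mup20 (1.40 ± 0.13, adjusted p = 2.61e-11 in JNK7a). Genes known to be higher in female liver were called 2 higher and 9 lower of 22 in JNK7a and 3 and 4 in JNK7b, with medians of -0.37 and -0.03. The part of these shifts in the transferase values was not tested. JNK kinases and AP-1 genes were called 0 higher and 10 lower of 16 in JNK7a and 0 and 1 in JNK7b, with medians of -0.40 and -0.01, among them Jun (-1.30 ± 0.17, adjusted p = 1.33e-07 in JNK7a). Core clock genes were called 0 higher and 2 lower of 19 in each, with medians of -0.05 and -0.08.

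Among markers of other cell types, those of Kupffer cells and macrophages were called 1 higher and 0 lower of 12 in each of JNK7a and JNK7b against control, and those of cholangiocytes 0 and 0 of 9. Endothelial markers were called 0 higher and 1 lower of 8 in JNK7a and 0 and 0 in JNK7b, as were stellate cell markers. Adipocyte markers were called 0 higher and 2 lower of 3 in JNK7a and 0 and 1 in JNK7b, with the median of Adipoq at 0 in every group, and red blood cell markers 0 and 0 of 5 in JNK7a and 0 and 1 in JNK7b. Pericentral hepatocyte markers were called 5 higher and 4 lower of 15 in JNK7a and 3 and 3 in JNK7b, and periportal ones 3 and 2, and 2 and 1, of 15, so each zone's list held calls in both directions.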

How the data were processed

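Polyadenylated liver RNA was sequenced as paired reads of 150 bases, per the labels' protocols, and cutadapt and Salmon were used with the build mm10, per the submitters' processing notes; versions and settings were not given in the sources used here. Estimated counts per gene, scaled from abundance by length, and TPM per gene were both deposited as tables by the authors. Salmon shares reads that match several transcripts, so near-copies are uncertain one by one, and overlap was measured as shared 31-base stretches of GENCODE transcripts.

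Lines with the same symbol were summed, counts were rounded, filterByExpr was applied by group and clock hour, and TMM factors were used. CPM is from those counts. edgeR 4.0.16 (quasi-likelihood, robust) was fitted to all 69 libraries with 1 coefficient for each of 24 combinations (45 residual degrees of freedom). Contrasts were means over 8 hours. Rhythm used a cosine and a sine of 24 h (60 residual degrees of freedom). P-values were adjusted by Benjamini-Hochberg over 17059 genes, and a gene is called below 0.05. Each SE was worked back from F and is approximate. With a common biological coefficient of variation of 0.275, precision is limited by differences among libraries more than by depth. Replicate pairs within a group and hour had a chi-square per degree of freedom of 20.7 to 240, so every library was counted. Tests were checked on simulated data with the same dispersion for every gene and changes placed in JNK7a only. That check does not cover members that vary more, such as Gsta1.

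All 10 members are named whatever their values, with the 2 other genes most alike by Pearson's r (1 such gene is not reported here), and list genes come from the 3 called with the smallest p in a comparison. Gstp2, Gstp3, Gstt1, Gstt2 and Gm3776 were added as neighbours or near-copies. The members and lists were chosen with earlier results of these data known. The alternatives tried were DESeq2 1.42.0, scaling by median ratios, no filter on low counts, a floor of 1 mean CPM, limma 3.58.1 voom with quality weights, log2(TPM + 1), log2(TPM + 0.1), only 2 groups, a replicate block, an additive design, and leaving out libraries or hours. Fits without a library or hour kept the dispersion trend of the full fit and estimated the quasi-dispersions again.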

Additional observations from a re-analysis of the deposited data

Results flagged for a closer look

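Gstm2 was set apart by a test of the difference itself: its log2 fold change in JNK7b against control differed by -0.78 between hours 8, 11, 20 and 23 and hours 2, 5, 14 and 17, and the split had been named on these data. Only 3 of the 24 combinations of group and hour hold the 4 libraries needed to look for one that stands far from the rest (control 20 h, JNK7b 20 h and JNK7b 23 h). No member had such a library there, in 30 looks where chance would single out about 1 in 20, and the other 21 combinations, of 2 or 3 libraries, were not tested.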

How the results depend on the processing

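No member changed sign with a call under any alternative. Of the values for single members 4588 kept their side of the threshold, 36 gained a call and 16 lost one. These totals include fits without a library of the group that a comparison leaves out. Such fits can hardly move the fold change, so the totals do not measure stability. The 63 alternative ratios of class sums, which have no test, moved by less than 1 SD between libraries of the first group named. That margin is wide, 0.64 on a ratio of 1.83 for pi in JNK7a against control. Ratios near 1 could cross it and still count as unmoved. Pi in JNK7b against control was 0.98, and 1.03 without both libraries that stand apart. For JNK7b against control, 1 member (Gstm3) was called higher without clock hour 14, in place of 0. For JNK7b against JNK7a, 0 were called higher with limma voom and 0 with the replicate block, in place of 1 (Gsta1, which under the block had 0.87, adjusted p = 0.127), and the block called Gstm3 lower there (-0.53, adjusted p = 0.0237) and changed no other member's call. Same-numbered libraries did not deviate together (median correlation -0.00526, -0.00843 and -0.0105 over 22, 21 and 19 pairs), so the numbers do not pair them; the block moved the calls over all genes to 2782 from 3047, to 1429 from 1935 and to 2596 from 3179. For the difference between sets of hours in JNK7b, limma voom called 2 members, log2(TPM + 1) called 0, the fit without both libraries that stand apart called 0, and leaving out each library in turn gave 1 to 3, the most without control 14 h replicate 3, where Gstm3 and Gstt3 were added. For the rhythm in JNK7a, 2 members were called with limma voom, with log2(TPM + 1) and without clock hour 2, 5 or 8, and 0 without hour 11, in place of 1. The test of any difference between hours called 4 in JNK7b and 5 in control, and 1 was called by the cosine in control without hour 8 or 23. Leaving out each library gave 4 higher and 3 lower in JNK7a against control throughout, 2 to 3 lower in JNK7b against control and 3 to 5 lower in JNK7b against JNK7a. The causes of these changes were not tested. Of the members, Gsta1 had the lowest median count, 104. It also varied most between libraries, with an SD of 76%, 90% and 133% of the mean in JNK7a, JNK7b and control. Gsta1 and Gsta2 shared the most sequence with other genes, 92.9% and 60.7% of their 31-base stretches. How far each of these limits the values was not tested. Gstp1, Gstm3 and Gstm1 share 38.5%, 37.7% and 28.8% of their 31-base stretches with other genes.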
